A study of Mus musculus with 2 samples.

Results

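The 10 genes described here belong to the transforming growth factor beta (TGF-beta) system: the ligands Tgfb1, Tgfb2 and Tgfb3, the receptors Tgfbr1, Tgfbr2 and Tgfbr3, Ltbp1 and Ltbp2 of the latent TGF-beta binding protein family, the matrix protein Tgfbi and the activin subunit Inhba. They were taken by symbol from the gene column of the deposited matrices, and all 10 were found among the 21849 genes listed. The cells were costal-cartilage-derived stem cells (CDSCs), obtained from the rib cartilage of newborn C57BL/6J mice that carried either CD45.1 or ZsGreen, digested with collagenase and sorted as CD45-CD51+. 1 library held primary CDSCs, and 1 held cultured CDSCs at passages 2 to 3, grown on plastic in medium with serum. The study asked whether primary and cultured CDSCs differ. How many mice went into each library is not given in the sources used here. ZsGreen was counted at 444 CPM (UMI counts scaled to a common library total) in the primary library and at 0 UMIs in the cultured one, so the libraries did not share this reporter, and strain, preparation, sequencing and culture cannot be told apart.

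As each group was a single library, replicate error could not be measured. No test was performed, and no difference below has a replicate check. All intervals are exact 95% intervals (Poisson for levels, conditional for ratios, Clopper-Pearson for shares) that cover counting error only. The unit was the unique molecular identifier (UMI), each standing for 1 captured transcript. A minimum of 500 genes and 1000 UMIs and a limit of 10% on mitochondrial UMIs left 11746 of 11896 primary barcodes with 137148874 UMIs and 5338 of 10798 cultured barcodes with 330129909 UMIs. The median was 10026.5 UMIs per primary and 56864.5 UMIs per cultured cell. 15 kept barcodes occurred in both libraries. The labels name bone marrow as the tissue, whereas the primary cells held all 13 chondrocyte markers at 10 CPM or more, with a summed level of 95141 CPM, and 8 haematopoietic markers at 7.31 CPM in all. In the cultured library, the same chondrocyte markers summed to 1043 CPM, and no cluster was chondrocyte-like.

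TGF-beta is secreted in a latent complex, in which its propeptide keeps the growth factor inactive. Latent TGF-beta binding proteins tether that complex to fibrillin-rich matrix, and integrins, thrombospondin and proteases release the growth factor. The freed ligand binds the type II receptor TGFBR2, which recruits and activates the type I receptor TGFBR1, and SMAD2 and SMAD3 then carry the signal to the nucleus with SMAD4. In cartilage, the pathway is known for keeping chondrocytes from maturing early, and in mesenchymal cells for driving matrix production and the contractile programme of myofibroblasts.

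The sequences before the start sites of the 5 genes that differed most between the libraries, and of Tgfbr1 for contrast with Tgfbr2, are shown because the deposited values describe transcripts only and the start sites are where those transcripts begin. RefSeq promoters (GRCm38.p6) were matched for 8 of the 10 genes, in 10 windows. Capitals mark the SMAD box CAGAC, the short element that SMAD3 and SMAD4 contact, or its reverse GTCTG. Each run reads 5′ to 3′ along the gene's own strand and ends at the last base before the first annotated exon. The Ltbp2 and Tgfbi runs are shorter than 250 bases because GENCODE places the first exon further upstream.
Ltbp1, chr17:75005279-75005528, plus strand: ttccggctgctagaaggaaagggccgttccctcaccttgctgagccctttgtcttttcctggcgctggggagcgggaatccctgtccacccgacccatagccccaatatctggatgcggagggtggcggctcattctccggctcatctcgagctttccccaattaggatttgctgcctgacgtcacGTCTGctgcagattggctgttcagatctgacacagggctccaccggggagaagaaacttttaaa
Ltbp2, chr12:84876533-84876741, minus strand: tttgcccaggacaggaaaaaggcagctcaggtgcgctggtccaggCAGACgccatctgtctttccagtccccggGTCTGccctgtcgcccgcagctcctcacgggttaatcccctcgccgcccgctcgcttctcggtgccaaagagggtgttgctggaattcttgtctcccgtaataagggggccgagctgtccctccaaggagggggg
Inhba, chr13:16011601-16011850, plus strand: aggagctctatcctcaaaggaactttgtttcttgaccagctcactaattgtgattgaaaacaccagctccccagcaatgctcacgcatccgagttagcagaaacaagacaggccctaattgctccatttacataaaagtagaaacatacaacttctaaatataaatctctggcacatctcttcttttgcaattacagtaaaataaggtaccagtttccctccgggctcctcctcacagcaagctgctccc
Tgfbr2, chr9:116175364-116175613, minus strand: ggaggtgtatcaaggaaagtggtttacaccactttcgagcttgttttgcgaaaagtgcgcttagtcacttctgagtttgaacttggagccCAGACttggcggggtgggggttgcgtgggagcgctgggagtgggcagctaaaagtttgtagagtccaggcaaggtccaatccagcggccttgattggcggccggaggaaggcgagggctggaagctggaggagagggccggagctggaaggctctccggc
Tgfbi, chr13:56609336-56609522, plus strand: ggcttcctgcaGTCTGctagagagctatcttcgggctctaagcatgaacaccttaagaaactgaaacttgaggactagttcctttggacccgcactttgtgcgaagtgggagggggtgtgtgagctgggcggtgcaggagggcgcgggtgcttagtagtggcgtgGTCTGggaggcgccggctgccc
Tgfbr1, chr4:47352972-47353221, plus strand: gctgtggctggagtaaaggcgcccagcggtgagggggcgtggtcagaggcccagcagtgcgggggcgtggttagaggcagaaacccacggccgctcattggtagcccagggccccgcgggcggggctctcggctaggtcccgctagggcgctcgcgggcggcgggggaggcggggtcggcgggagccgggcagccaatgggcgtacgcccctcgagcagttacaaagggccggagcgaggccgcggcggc

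The SMAD box was present on either strand in 7 of the 10 windows of 250 bases, against 42.2% of 32851 windows of the same length in the whole table. Ltbp2 and Tgfbi held 2 boxes each in their printed runs, Ltbp1 and Tgfbr2 1 each, and Inhba and Tgfbr1 held 0. RefSeq gives a further start site within Tgfbr1 and within Ltbp1, not printed, and their windows held 1 and 2 boxes. Boxes were thus counted before genes that were higher and before a gene that was lower in the cultured library. The AP-1 element TGANTCA, which reads the same on both strands, and the TEAD element GGAATG or CATTCC were found in 0 of the 10 windows, against 6.75% and 12.6% of all windows. The SP1 box GGGCGG or CCGCCC was found in 4 of the 10 windows and in 32.7% of all. The guanine and cytosine content of the 10 windows ran from 43.2% before Inhba to 75.2% before Tgfb1. A match of letters is not a site of binding.

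Across the 10 genes, 4 were at least 2-fold higher in the cultured library (Tgfbr2, Ltbp1, Ltbp2 and Inhba), 1 was lower by as much or more (Tgfbi), and 5 lay within 2-fold (Tgfb1, Tgfb2, Tgfb3, Tgfbr1 and Tgfbr3). Of the 9115 genes that reached 10 CPM in the primary or the cultured library, 27.2% exceeded 2-fold on the higher side and 12.5% on the lower side. At 4-fold, the counts were again 4 and 1 of 10, against 10.6% and 5.73% of all genes. The median log2 ratio of cultured over primary CPM was 0.24 over the 10 genes and 0.37 over all 9115. Scaling by TMM factors (trimmed mean of M values) in place of library totals moved the latter to 0.17. Tgfbr1 then also passed 2-fold, which made the split 4 higher and 2 lower. The shares of all genes past 2-fold under these factors are not given here. In sums over a library, more cells with a transcript and more of it per cell cannot be told apart. Because 3′ libraries count transcripts by their tails, levels do not scale with transcript length. Whether reads in introns were counted is not given in the sources used here, and this bears on the levels of genes with long introns such as Ltbp1 and Tgfbr3.

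**Figure D1:**
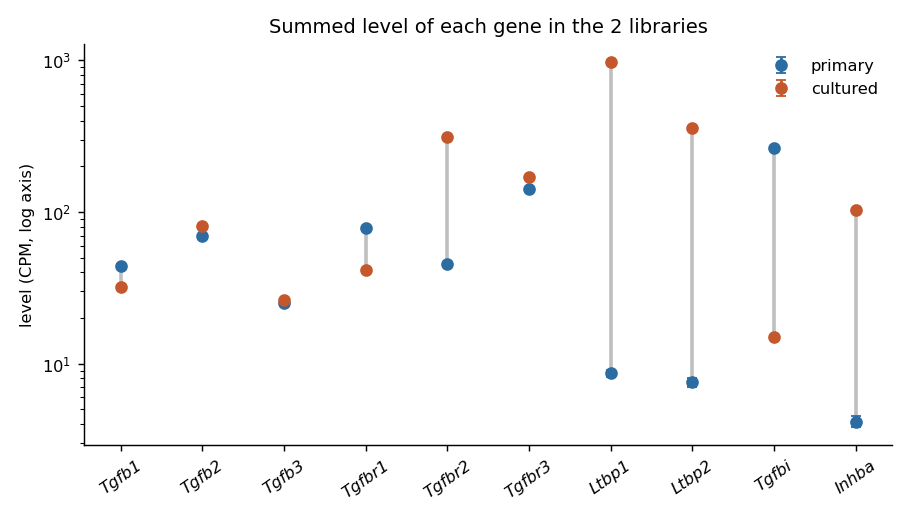
Summed level of each of the 10 genes in the primary (blue) and the cultured library (orange), in CPM on a log axis, with a grey line joining both values of a gene and bars for exact 95% Poisson intervals, mostly smaller than the points. Ltbp1 runs from 8.65 to 968 CPM and Tgfbi from 263 to 15.1 CPM, while the points of Tgfb3, at 25.2 and 26.3 CPM, lie on each other.

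By library totals, the 3 ligands were counted at nearly the same sum in both libraries, 138 CPM for primary and 139 CPM for cultured cells. Tgfb1, the most widely expressed isoform (chr7:25687002-25705077), had 6033 UMIs or 44.0 CPM (42.9 to 45.1) in the primary and 10575 UMIs or 32.0 CPM (31.4 to 32.6) in the cultured library. It was thus lower in the cultured cells, by 1.37-fold, a log2 ratio of -0.46 (-0.50 to -0.41). Tgfb2, which needs the co-receptor betaglycan for strong binding (chr1:186622792-186705989), stood at 69.1 CPM (67.7 to 70.5) in primary and 80.4 CPM (79.5 to 81.4) in cultured cells, a log2 ratio of 0.22 (0.19 to 0.25). Tgfb3, known for its part in palate and joint formation (chr12:86056745-86079041), was counted at 25.2 CPM (24.3 to 26.0) and 26.3 CPM (25.8 to 26.9), a log2 ratio of 0.06 (0.01 to 0.12). The sign of the Tgfb3 ratio depended on the scaling: it was -0.13 under TMM factors and -0.06 with every cell given the same weight. Of all ligand UMIs, Tgfb2 made up 49.98% (49.3 to 50.7) in primary and 58.0% (57.5 to 58.4) in cultured cells. The share of Tgfb1 was 31.8% (31.2 to 32.5) and then 23.1% (22.7 to 23.5), whereas Tgfb3 held 18.2% and 19.0%. The mix of ligands shifted from Tgfb1 towards Tgfb2, at nearly the same sum by library totals. Under TMM factors, the log2 ratio came to -0.65 for Tgfb1 and 0.02 for Tgfb2, so the near equality of the sums depended on the scaling.

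The 2 signalling receptors differed in opposite directions. Tgfbr2, the type II receptor that binds the ligand first (chr9:116084293-116175360), had 6246 UMIs or 45.5 CPM (44.4 to 46.7) in the primary and 103129 UMIs or 312 CPM (310 to 314) in the cultured library. The cultured level was 6.86-fold higher, with a log2 ratio of 2.78 (2.74 to 2.82). Tgfbr1, the type I receptor that phosphorylates SMAD2 and SMAD3 (chr4:47353222-47414931), was counted at 78.3 CPM (76.8 to 79.8) in primary and 41.3 CPM (40.6 to 42.0) in cultured cells. This was 1.89-fold lower in the cultured library, with a log2 ratio of -0.92 (-0.96 to -0.88) by library totals and -1.12 under TMM factors. Among the UMIs of both receptors, Tgfbr1 was the more abundant in primary cells at 63.2% (62.5 to 63.9), and made up 11.7% (11.5 to 11.9) in cultured cells. In the library sums, the order of the receptor pair was therefore reversed. Of the primary clusters described below, cluster 7 had Tgfbr2 at 77.7 CPM and Tgfbr1 at 75.9 CPM, and cluster 9 had 104 and 92.6 CPM. The counting intervals of the pair overlapped in both clusters. Tgfbr1 was the higher in every other primary cluster. Tgfbr3, betaglycan, a co-receptor without kinase activity that also binds inhibin (chr5:107106570-107289629), stood at 142 CPM (140 to 144) and 170 CPM (169 to 172), a log2 ratio of 0.26 (0.24 to 0.28). This was under the median of all genes and came to 0.06 under TMM factors.

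Ltbp1 and Ltbp2 showed the greatest ratios of the 10 genes. Ltbp1, which binds the latent complex covalently and anchors it in the matrix (chr17:75005568-75392512), had 1187 UMIs or 8.65 CPM (8.17 to 9.16) in the primary and 319476 UMIs or 968 CPM (964 to 971) in the cultured library. The cultured level was 112-fold higher, with a log2 ratio of 6.80 (6.72 to 6.89). RefSeq gives 2 start sites for Ltbp1, which counts of 3′ tags do not resolve. Ltbp2, a relative that binds fibrillin but is known not to bind latent TGF-beta (chr12:84783212-84876532), was counted at 7.52 CPM (7.07 to 7.998) in primary and 357 CPM (355 to 359) in cultured cells, 47.4-fold higher, with a log2 ratio of 5.57 (5.48 to 5.66). Both genes were under 10 CPM in the primary library and over 100 CPM in the cultured one.

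The other members of the family, Ltbp3 and Ltbp4, did not follow. Ltbp3, the family member best known from bone and cartilage, was at 105 CPM in primary and 141 CPM in cultured cells, and Ltbp4 at 25.9 and 13.7 CPM. Together the 4 Ltbp genes summed to 147 CPM in primary and 1479 CPM in cultured cells. Ltbp3 provided 71.4% (70.8 to 72.0) of these UMIs in primary cells and 9.52% (9.43 to 9.60) in cultured cells. Ltbp1 made up 5.88% (5.56 to 6.21) and then 65.4% (65.3 to 65.6), and Ltbp2 5.11% and then 24.1%. The leading latent binding protein transcript was Ltbp3 in the primary and Ltbp1 in the cultured library.

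Tgfbi, an extracellular protein that links collagens and integrins and was named for its induction by TGF-beta (chr13:56609523-56639562), went the other way. It had 36126 UMIs or 263 CPM (261 to 266) in primary cells, the highest level of the 10 genes there, and 4981 UMIs or 15.1 CPM (14.7 to 15.5) in cultured cells, the lowest of the 10 there. The cultured level was 17.5-fold lower, with a log2 ratio of -4.13 (-4.17 to -4.08). Inhba, the subunit that forms activin A as a homodimer and inhibin A with the Inha product (chr13:16011851-16031621), had 569 UMIs or 4.15 CPM (3.81 to 4.50) in the primary and 34008 UMIs or 103 CPM (102 to 104) in the cultured library. It was 24.8-fold higher in cultured cells, with a log2 ratio of 4.63 (4.51 to 4.76). Inha itself stayed low, at 3.76 CPM in primary and 1.26 CPM in cultured cells.

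To compare shares of cells, 5000 UMIs were drawn from each cell. This kept 10959 primary and 4543 cultured cells and excluded 787 and 795 shallower ones. Ltbp1 UMIs were found in 3.23% (2.91 to 3.58) of the primary cells and in 94.4% (93.7 to 95.1) of the cultured ones. Ltbp2 was detected in 2.57% (2.28 to 2.89) and 68.9% (67.5 to 70.2), and Inhba in 1.44% (1.23 to 1.68) and 31.7% (30.3 to 33.1). For Tgfbr2 the shares were 19.4% (18.7 to 20.2) and 65.0% (63.6 to 66.4). Tgfbi UMIs were found in 53.0% (52.0 to 53.9) of the primary cells but in 6.76% (6.04 to 7.53) of the cultured ones. The 5 genes with the greatest ratios thus differed in the share of cells as well as in the sum. The shares rest on UMIs of the same cells as the sums and are no separate check. In the unnamed primary cluster described below, 187 thinned cells, the shares were higher than in primary cells as a whole: 31.0% for Ltbp1, 36.9% for Ltbp2 and 21.9% (16.2 to 28.5) for Inhba. Without thinning, the shares were 6.21% and 94.4% for Ltbp1, 5.13% and 87.8% for Ltbp2, 2.66% and 74.6% for Inhba, 35.01% and 87.5% for Tgfbr2, and 67.5% and 32.6% for Tgfbi.

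The remaining genes were closer. Thinned shares of primary and cultured cells were 16.6% (15.9 to 17.3) and 14.8% (13.8 to 15.9) for Tgfb1, 23.4% (22.6 to 24.2) and 28.9% (27.6 to 30.2) for Tgfb2, and 12.3% (11.7 to 12.9) and 11.8% (10.9 to 12.8) for Tgfb3. The intervals of Tgfb3 overlapped. Tgfbr1 was detected in 29.4% (28.6 to 30.3) and 18.1% (17.0 to 19.3), and Tgfbr3 in 42.1% (41.2 to 43.0) and 50.1% (48.7 to 51.6). UMIs of both signalling receptors were found in 5.82% (5.39 to 6.28) of the primary cells and 12.0% (11.1 to 13.0) of the cultured ones at this depth, and UMIs of neither in 57.0% and 28.9%. These joint shares depend on the share of each receptor alone, which for Tgfbr2 was 19.4% and 65.0%. Whether both occurred together more often than the single shares give was not tested. At least 1 of the 3 ligands was found in 43.5% (42.6 to 44.4) of the primary cells and 46.8% (45.4 to 48.3) of the cultured ones. Unthinned, the shares of cultured cells were higher for each of these genes, from 55.6% for Tgfb3 to 81.6% for Tgfbr3, at a median depth over 5 times that of primary cells. As a cell type of another lineage, 9 haematopoietic-like cultured cells held Ltbp1 in 3 cells, or 33.3% (7.49 to 70.1), and Ltbp2 in 1, or 11.1% (0.28 to 48.2), after thinning, at a median of 35946 UMIs before thinning against 66411 UMIs for all thinned cultured cells. The part of free RNA in the shares was not tested.

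**Figure D2:**
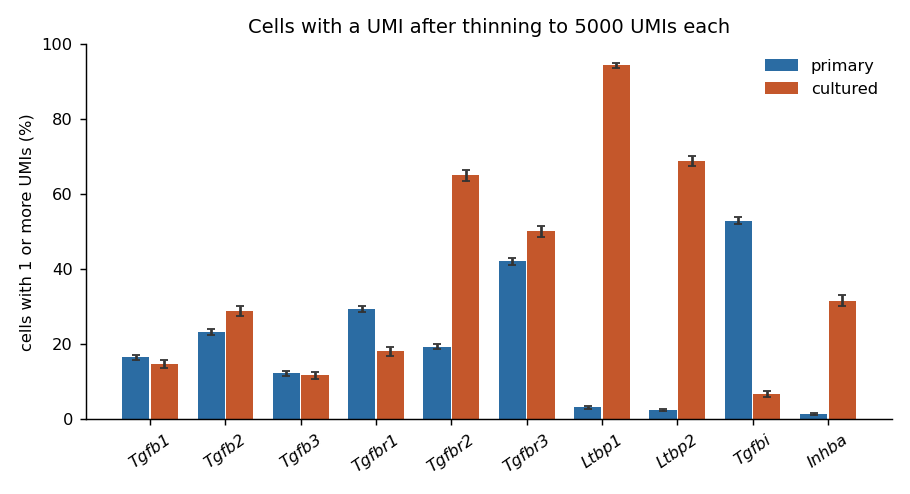
Percentage of cells with at least 1 UMI of each gene after every cell was thinned to 5000 UMIs, in 10959 primary (blue) and 4543 cultured cells (orange), with exact binomial 95% intervals. Ltbp1 and Ltbp2 lie at 3.23% and 2.57% of primary cells and at 94.4% and 68.9% of cultured cells, Tgfbi lies at 53.0% of primary and 6.76% of cultured cells, and the bars of Tgfb3 overlap in their intervals.

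Per cell, the thinned cultured cells had a median of 4 Ltbp1 UMIs with a 10th percentile of 1 and a 90th percentile of 9, and 45.1% of them held 5 or more. Of the primary cells, 0.0182% held 5 or more, and the 90th percentile was 0. The 90th percentile of Tgfbr2 was 1 UMI in primary and 4 UMIs in cultured cells, and that of Tgfbi 4 and 0.

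Within each library, cells were clustered by their variable genes, which gave 10 primary and 11 cultured clusters. 9 primary clusters with 11456 cells were chondrocyte-like. The other, cluster 9 with 290 cells, held markers of fibroblasts, mast cells and endothelial cells and stayed unnamed. 9 cultured clusters had at least 50 cells, and all 9 stayed unnamed, so they are called by their leading genes. Cultured cluster 2 (864 cells) stood apart in depth, with a median of 1277 UMIs per cell, and had the lowest level among these 9 clusters for every one of the 10 genes except Inhba. Its values rest on shallow barcodes. For Tgfbr2, Ltbp1, Ltbp2, Tgfbi and Inhba, the ranges of the primary and the cultured clusters did not meet. The lowest cultured cluster had 413 CPM of Ltbp1 against 96.3 CPM in the highest primary one, 165 against 116 CPM of Ltbp2, 125 against 104 CPM of Tgfbr2 and 64.7 against 37.6 CPM of Inhba. For Tgfbi the highest cultured cluster had 43.2 CPM and the lowest primary one 149 CPM. The ranges of the other 5 genes overlapped. The same genes that lay within 2-fold in the sums thus had some primary clusters above and some below cultured ones. With 30 principal components in place of 10, the ranges of Tgfbr2 met too, at 102 CPM in the highest primary and 93.4 CPM in the lowest cultured cluster. Sub-clusters of primary cluster 9 also reached into the cultured ranges, up to 384 CPM of Ltbp2, 168 CPM of Tgfbr2 and 85.7 CPM of Inhba.

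**Figure D3:**
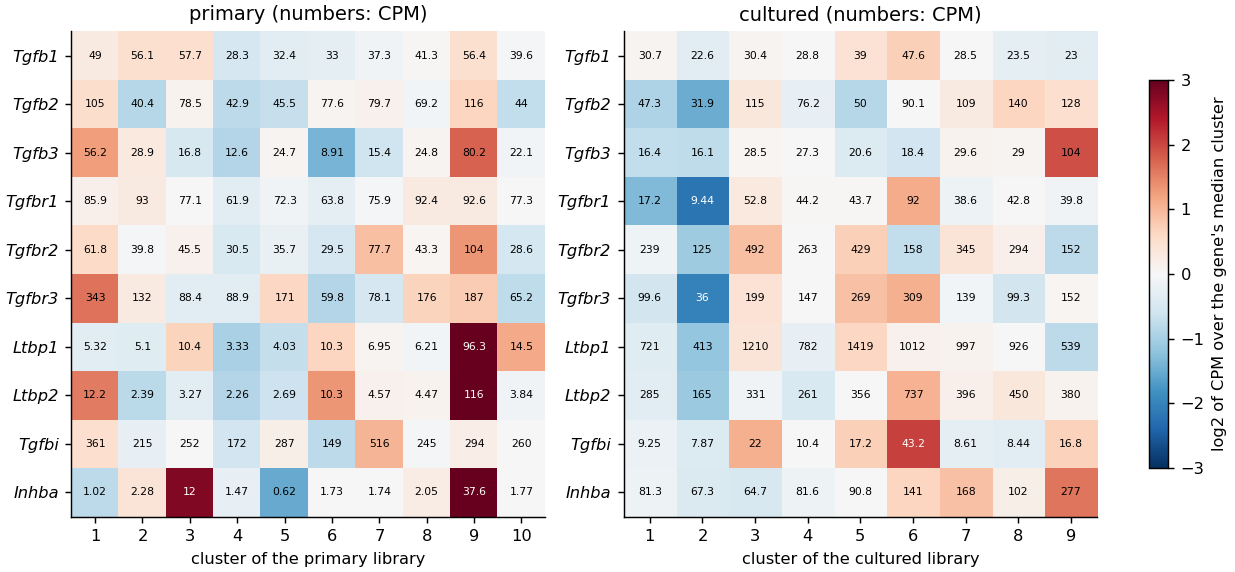
Level of each gene in each cluster of at least 50 cells, with the CPM printed in each tile and colour for the log2 of that CPM over the gene's median cluster in the same library. Primary cluster 9 carries the highest Ltbp1, Ltbp2 and Inhba of its library (96.3, 116 and 37.6 CPM), and cultured cluster 6 the highest Tgfbr1, Tgfbr3, Ltbp2 and Tgfbi of its own (92.0, 309, 737 and 43.2 CPM).

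Among primary cells, Ltbp1, Ltbp2 and Inhba were concentrated in few cells. Cluster 9 held 2.47% of the cells but 21.6% of the Ltbp1, 29.8% of the Ltbp2 and 17.6% of the Inhba UMIs. In the 9 chondrocyte-like clusters, Ltbp1 ranged from 3.33 to 14.5 CPM and Ltbp2 from 2.26 to 12.2 CPM. When cluster 9 was clustered again, 3 of its 10 sub-clusters with 52, 45 and 44 cells were mesenchymal fibroblast-like, led by genes such as Kera, Col1a1 and Postn. Ltbp2 stood at 222 (173 to 281), 281 (211 to 366) and 125 CPM (99.4 to 154) in these, and Ltbp1 at 213 (165 to 270), 161 (109 to 229) and 80.1 CPM (60.2 to 105). These levels were above every chondrocyte-like cluster. The highest Ltbp2, 384 CPM (290 to 499), was in an unnamed sub-cluster of 26 cells that also held fibroblast markers. Another sub-cluster of 26 cells, which held the mast and endothelial markers, had 78.5 CPM (49.7 to 118) of Ltbp1, close to the third fibroblast-like sub-cluster, but 1 Ltbp2 UMI, or 3.41 CPM (0.09 to 19.0), and 0 Inhba UMIs, for which 3 counts would be 10.2 CPM. It had the highest Tgfb1 of the sub-clusters, at 222 CPM (171 to 283). With cluster 9 and the haematopoietic-like cultured cells left out, the log2 ratio of cultured over primary cells was 7.13 for Ltbp1, 6.05 for Ltbp2 and 4.88 for Inhba.

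Inhba had a further source among the chondrocyte-like cells. Cluster 3 (1712 cells), with Slc22a4, Srxn1, Dusp2 and Tac1 among its leading genes, held 293 of the 569 primary UMIs, or 51.5%, at 12.0 CPM (10.6 to 13.4). The other 8 chondrocyte-like clusters lay between 0.62 and 2.28 CPM. The summed level of 8 immediate early genes was 18209 CPM in cluster 3, within the range of 12172 to 23735 CPM of the primary clusters. Cluster 3 also had the highest Tgfb1, at 57.7 CPM (54.8 to 60.8), which overlapped in interval with cluster 9 at 56.4 CPM.

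Among the chondrocyte-like clusters, Tgfbr3 and Tgfb3 were both highest in cluster 1 (2277 cells), led by Tll1 and Clu and also by Cilp2 and Prg4, the lubricin gene of the cartilage surface. Tgfbr3 reached 343 CPM there, against 59.8 to 176 CPM in the other chondrocyte-like clusters. Tgfb3 reached 56.2 CPM, against 8.91 to 28.9 CPM, while cluster 9 had 80.2 CPM (69.7 to 91.7). Cluster 1 also had the highest chondrocyte-like Tgfb2, 105 CPM. Over the 9 chondrocyte-like clusters, which share 1 library, Pearson's r of the log2 levels of Tgfb3 and Tgfbr3 was 0.87. That was the highest value among the 45 pairs of the 10 genes. Tgfbi was highest in cluster 7 (843 cells), led by Slc35f1, Runx3 and Wnt5b, at 516 CPM against 149 to 361 CPM elsewhere among these clusters, and cluster 7 also had their highest Tgfbr2, 77.7 CPM. Tgfbr1 was the most even of the 10 genes, from 61.9 to 93.0 CPM over all 10 primary clusters, and each pair of neighbours in its order overlapped in counting interval. Cluster 10 (184 cells), led by the cell division genes Cenpf and Pbk, had the highest Ltbp1 of the chondrocyte-like clusters, 14.5 CPM (10.7 to 19.1), which overlapped in interval with cluster 3 at 10.4 CPM.

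Among cultured cells, the genes were highest in different clusters. Cluster 6 (459 cells), which carried Mmp13, Comp, Sfrp4 and Fap among its leading genes, had the highest Tgfb1 (47.6 CPM), Tgfbr1 (92.0 CPM), Tgfbr3 (309 CPM), Ltbp2 (737 CPM) and Tgfbi (43.2 CPM). Its Tgfbr2 was among the lowest, at 158 CPM, and overlapped in interval with cluster 9 at 152 CPM. Tgfbr2 was highest in cluster 3 (738 cells, led by Cytl1 and Gpc3) at 492 CPM and in cluster 5 (672 cells, led by Hmcn1 and Il1rl1) at 429 CPM. Cluster 5 also had the highest Ltbp1, 1419 CPM, followed by cluster 3 at 1210 CPM. The leading cluster depended on the clustering: at resolution 1 or with the highest doublet scores left out, a cluster led by Lars2 had the highest Ltbp1 (2766 CPM), Tgfbr1 (151 CPM), Tgfbr3 (401 CPM) and Ltbp2 (772 CPM). With these doublet scores left out, it also had the highest Tgfbi, at 28.8 CPM. Cluster 9 (180 cells, with Cnn1 among its leading genes) had the highest Inhba, 277 CPM (268 to 286), and the highest Tgfb3, 104 CPM, over 3 times that of any other cluster. It was followed for Inhba by cluster 7 (452 cells), where Acta1, Acta2, Tagln and Myl9 were among the leading genes, at 168 CPM (164 to 173). Tgfb2 was highest in cluster 8 (261 cells, led by Nr5a2 and Barx1), at 140 CPM, but at resolution 1 in a cluster led by Cytl1, at 143 CPM.

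Of the 45 pairs of the 10 genes, the highest and the lowest Pearson's r over the 8 cultured clusters other than the shallow cluster 2 were 0.87 between Tgfbr3 and Tgfbi and -0.66 between Tgfb1 and Tgfb3. With cluster 2 included, the latter was -0.44. The points share 1 library and differ in depth, and these values describe the clusters only. Ltbp1, Tgfbr2 and Ltbp2 had the clearest order of clusters in culture, with 1 of 8 pairs of neighbours overlapping in counting interval for each. The order was least clear for Tgfb3, with 6 of 8 pairs overlapping, although its top cluster stood clear of the rest.

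The genes whose levels followed each of the 10 most closely were sought over 19 clusters, 10 primary and 9 cultured, after centring log2 levels within each library. Ltbp1 was most like Sh2b3, Add3 and Kitl (r of 0.94, 0.93 and 0.91), and Ltbp2 most like Nox4, Palm and Hdac7 (0.95, 0.95 and 0.92). Inhba was most like F2r, Slco2a1 and Pdlim7 (0.89, 0.88 and 0.86), and Tgfb3 most like Col1a2, Cpxm2 and Plpp3 (0.90, 0.89 and 0.89). For the receptors, the closest genes were Mapk8, Cnot4 and Qki for Tgfbr1 (0.97, 0.96 and 0.96), Tjp1, Ripor1 and Ktn1 for Tgfbr2 (0.90, 0.85 and 0.85), and Ssbp2 and Tsc1 for Tgfbr3 (0.96 and 0.95). Tgfb1 was closest to Slc38a1, Tgif1 and Dst (0.82, 0.82 and 0.81), Tgfb2 to Itga1, Mindy3 and Dlc1 (0.87, 0.86 and 0.84), and Tgfbi to C1galt1, Dyrk2 and Sugct (0.89, 0.86 and 0.84). These are the highest of 9115 genes over few clusters, which share a library and differ in depth. The shallow cultured cluster 2 and the mixed primary cluster 9 were among the clusters, and no values without them are given here.

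Other genes of the pathway were read from 6 lists of 71 genes in all, of which 58 reached 10 CPM in a library. 19 of the 58 were higher in cultured cells by 2-fold or more, beside 27.2% of all genes, and 13 of the 58 were lower by as much, beside 12.5%. The other 26 lay within 2-fold, and the median log2 ratio was 0.30. Under TMM factors, the split was 18 higher and 19 lower, without the shares over all genes to set beside it.

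Of the other ligands, 2 of 8 had at least 10 CPM. Both reached it only in the cultured library, so the minimum itself set the side on which they lay. Inhbb, the second activin beta subunit, was at 0.42 CPM in primary and 27.0 CPM in cultured cells, a log2 ratio of 6.02 (5.64 to 6.42). Gdf15, a distant member of the family induced by stress, was at 1.39 and 12.8 CPM. The higher Inhba level thus came with a higher Inhbb level, without Inha. Of the other receptors, 4 of 7 were measured at that level and all 4 lay within 2-fold, as did 5490 of all 9115 genes. These were the type I receptors Acvr1 (99.7 and 54.4 CPM) and Acvr1b (17.1 and 12.0 CPM), the activin type II receptor Acvr2a (20.3 and 26.0 CPM) and the co-receptor Eng (11.7 and 18.0 CPM). Tgfbr2 was the receptor that stood out from the others in size.

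Among genes of latency and activation, 5 of 13 measured genes were higher, 1 lower and 7 within 2-fold. The shares over all genes were 27.2% higher and 12.5% lower. Lrrc32, which displays latent TGF-beta on the cell surface, was at 1.39 CPM in primary and 25.4 CPM in cultured cells, 18.3-fold higher. Fbn2, a fibrillin, was 8.68-fold higher (45.8 and 398 CPM), and Thbs1, thrombospondin 1, an activator of the latent complex, 7.99-fold higher (309 and 2470 CPM). Furin, the protease that cleaves the ligand precursors, was 2.57-fold lower (51.4 and 19.98 CPM). Ltbp4 and Mmp2 had the next lowest ratios, both within 2-fold, with Mmp2 at 253 and 136 CPM. Of the 6 extracellular inhibitors, 2 were higher, 3 lower and 1 within 2-fold, beside the same 27.2% and 12.5% of all genes. Fst, follistatin, which traps activins, had the greatest ratio of all pathway genes, from 0.90 CPM in primary to 165 CPM in cultured cells, a log2 ratio of 7.51. Fstl3, its relative, was at 1.25 and 12.6 CPM. The lower ones were the small leucine-rich proteoglycans of cartilage that bind TGF-beta: Fmod, 32.5-fold lower (1806 and 55.6 CPM), Dcn, 21.0-fold lower (1375 and 65.5 CPM), and Bgn, 3.46-fold lower (4164 and 1204 CPM). Aspn lay within 2-fold, at 106 and 55.4 CPM. Both activin inhibitors, which reached 10 CPM only in the cultured library, were thus higher, and 3 of the 4 proteoglycans lower.

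Of 15 SMADs and regulators, 3 were higher, 3 lower and 9 within 2-fold, beside 27.2% higher and 12.5% lower over all genes. The SMADs that carry the signal were close in both libraries: Smad2 at 57.6 and 75.1 CPM, Smad3 at 76.5 and 81.2 CPM and Smad4 at 87.1 and 100 CPM. Smurf1 and Smurf2, ubiquitin ligases that act on SMADs and receptors, were 3.38-fold and 2.39-fold higher, and Fkbp1a, which binds the type I receptor, 2.49-fold higher. Bambi, a pseudoreceptor, was 19.1-fold lower (110 and 5.76 CPM), Skil, a SMAD co-repressor, 6.56-fold lower (239 and 36.4 CPM), and Tgif2, another co-repressor, 6.43-fold lower (27.4 and 4.26 CPM).

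Of 18 genes often used as targets of the pathway, 7 were higher, 6 lower and 5 within 2-fold. Over all genes, 27.2% were higher and 12.5% lower. The higher ones included Tagln, an actin-binding protein of smooth muscle, 33.3-fold (38.5 and 1282 CPM), Cdkn2b, a cell cycle inhibitor, 16.5-fold (3.89 and 64.2 CPM), and Tnc, tenascin C, 13.7-fold (21.8 and 297 CPM). The lower ones included Postn, periostin, 29.5-fold (91.0 and 3.09 CPM), Bhlhe40, a transcription factor, 9.73-fold (449 and 46.1 CPM), and Ccn2, a matrix-associated growth factor, 4.403-fold (1027 and 233 CPM). The listed targets were found on both sides, and their counts were not tested against the shares of all genes. Immediate early genes, which respond within minutes to handling and stimulation, moved with the comparison too: 8 of them summed to 17674 CPM in primary and 1989 CPM in cultured cells. Their part in the lower levels of Bhlhe40, Ccn2 and Skil was not tested.

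**Figure D4:**
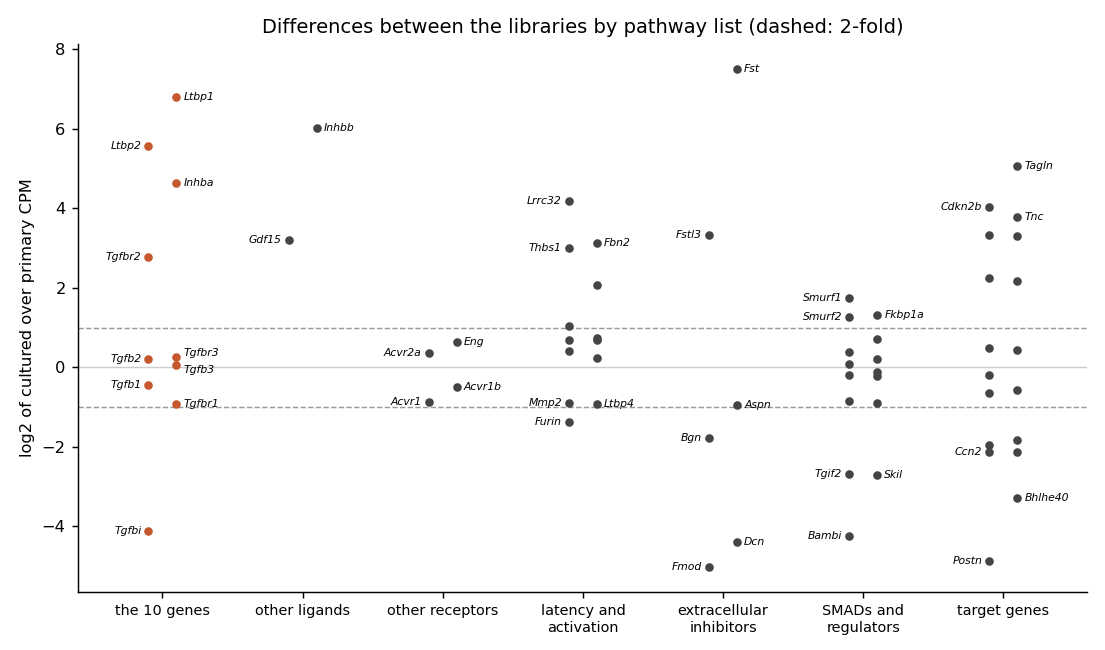
Log2 ratio of cultured over primary CPM for the 10 genes (orange) and for 58 other pathway genes (grey), by list, with dashed lines at 2-fold and names for the 3 highest and 3 lowest genes of each list. Ltbp1 (6.80) and Tgfbi (-4.13) bound the 10 genes, Fst (7.51) and Fmod (-5.02) bound the inhibitors, and the other receptors lie within 2-fold.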

How the data were processed

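Cells of 1 primary and 1 cultured library had been profiled with the 10x Genomics 3′ v3.1 chemistry. Per the labels and the file headers, the deposited matrices held unnormalised UMI counts by gene and barcode, which the authors made with Cell Ranger 7.0.0. The labels list more than 1 genome build without saying which was used, and GRCm38 was taken from the study's methods. The annotation and the handling of intronic reads are not given in the sources used here. UMIs were summed over kept cells and scaled to CPM, with counts under 3 raised to 3 in ratios; the floor of 3 counts was 0.0219 CPM for primary and 0.00909 CPM for cultured cells. Depth per library and cell is given in the report. The 10 genes and the pathway, marker and immediate early lists were chosen with earlier results of these data known. Named pathway genes were the 3 highest and 3 lowest ratios of each list among genes with at least 10 CPM, and the genes most like a member were the 3 with the highest Pearson correlation, of which 1 is not reported here. Inha, Ltbp3, Smad2, Smad3 and Smad4 were named beside that rule, after their values were seen. Clusters came from Leiden clustering (scanpy 1.11.5, leidenalg 0.10.2) of each library, with 2000 variable genes, 10 components, 20 neighbours and resolution 0.5 (10 neighbours and resolution 1 for sub-clusters). A cluster took a class name from at least 3 fixed markers at 4-fold over the other cells, or as chondrocyte-like from at least 3 chondrocyte markers at 1000 CPM. TMM factors came from edgeR 4.0.16. Doublets were kept in the main values, since Scrublet called 1 and 2 cells and had not worked; the alternative left out 1118 primary and 461 cultured cells of highest score. The ratio and its interval were run on simulated Poisson counts with known fold changes. These held no spread between cells or replicates, so they cannot check the intervals for such spread. Coordinates are those of GENCODE for GRCm38.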

Additional observations from a re-analysis of the deposited data

Results flagged for a closer look

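Barcodes under 1000 UMIs entered no comparison above. The cultured library held 5336 of them, with a median of 772 UMIs and 0.402% mitochondrial UMIs, against 2.16% in the kept cells. All 10 genes had more than 3 counts there, the limit that a count of 0 allows. Their levels in these barcodes were 30.3 CPM for Tgfb1, 64.9 CPM for Tgfb2, 30.8 CPM for Tgfb3, 35.8 CPM for Tgfbr1, 308 CPM for Tgfbr2, 127 CPM for Tgfbr3, 989 CPM for Ltbp1, 422 CPM for Ltbp2, 13.98 CPM for Tgfbi and 176 CPM for Inhba. For 6 of the 10 genes the level of the kept cells lay inside the counting interval of these barcodes. It lay outside for Tgfb2 (80.4 CPM in the kept cells), Tgfbr3 (170 CPM), Ltbp2 (357 CPM) and Inhba (103 CPM). What these barcodes are was not tested.

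The primary library held 71 such barcodes, with 51095 UMIs in all. Of the genes, 5 had more than 3 counts: Tgfb1 at 78.3 CPM, Tgfb2 at 117 CPM, Tgfbr1 at 215 CPM, Tgfbr3 at 294 CPM and Tgfbi at 489 CPM. For 2 of these 5 the level of the kept cells lay inside the interval.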

How the results depend on the processing

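The counts of genes past 2-fold were recomputed under TMM scaling, equal weight per cell, every deposited barcode, a stricter filter, at least 5000 UMIs per cell, doublet scores left out, other cell types left out, thinning, a 4-fold threshold and other minimum levels. Of 42 such counts, 41 stayed within 1.5 times the main count, and the exception was the number of the 10 genes lower in cultured cells, which went from 1 to 2 under TMM factors. Of 80 recomputed log2 ratios, 2 changed sign, both for Tgfb3 (-0.13 under TMM factors and -0.060 with every cell weighing the same), and the cause was not tested. Over all settings the log2 ratio stayed between 6.61 and 7.13 for Ltbp1, 5.27 and 6.05 for Ltbp2, 4.44 and 4.88 for Inhba, 2.58 and 2.82 for Tgfbr2, and -4.32 and -3.93 for Tgfbi. Shares of cells moved in 40 of 60 recomputations, in all but 1 of them at another depth, and the range between clusters by more than 1.5 times in 11 of 60. No paired analysis was possible because each group had 1 library, and no library could be left out in turn. Depth limits Ltbp1, Ltbp2 and Inhba within primary clusters most, where single clusters held as few as 6 UMIs of Inhba.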
